A study of Mus musculus with 12 samples.

Results

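Alport syndrome is a hereditary kidney disease, and its effect on kidney transcripts was measured here by comparing 3 samples of Alport mice given vehicle with 3 samples of wild type mice given vehicle. These 6 samples were chosen by their titles out of 12 in the series, and the other 6, from Alport mice given losartan or metformin, entered only the estimate of the spread between samples. All were whole kidney RNA from mice whose stated age was 16 weeks. The Alport mice were labelled hemizygous for a nonsense allele of Col4a5 (G5X), and the wild type label carries no further detail. Because Col4a5 is X-linked, the hemizygous label implies male Alport mice, but sex is not stated as such and that of the wild type mice is not given. The labels also do not give strain, the composition of the vehicle or whether the 3 samples of a group came from 3 mice. The p-values therefore reflect sample-to-sample spread that can be partly technical. Affymetrix Clariom S arrays had been used, and 22206 probe sets each have a log2 value in every sample.

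Col4a5 lies on the X chromosome and encodes the alpha 5 chain of type IV collagen. This chain joins the alpha 3 and alpha 4 chains in the basement membrane of the glomerular filter, and without it the filter leaks protein and the kidney scars over time. Most of the mass of the kidney, and so most of the RNA of a whole kidney, comes from the tubules behind the filter. The proximal tubule takes back sugars, amino acids, phosphate and filtered protein, runs largely on fatty acids and breaks down amino acids, and the later segments adjust salt, acid and water.

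A linear model (limma, all 12 samples, Benjamini-Hochberg adjustment over all probe sets) served for every test, and a gene is said to have risen or fallen only where the adjusted p was under 0.05. Col4a5 itself had log2 levels of 5.06, 5.83 and 5.40 in wild type and of 4.44, 4.13 and 4.97 in Alport. It was lower in every Alport sample than in any wild type sample and fell by 0.92 ± 0.23 (SE, n = 3 and 3, adjusted p = 0.0116). That call was lost without wild type sample 2 or Alport sample 2 (adjusted p 0.0519 to 0.0663), and the Alport levels are close to the lower quartile of all probe sets, 4.21 to 4.25 in the 6 samples. Across probe sets, the wild type samples correlated with each other at 0.993 to 0.994, the Alport samples at 0.990 to 0.991, and samples of different groups at 0.975 to 0.985.

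In the comparison 3582 of 22206 probe sets were called (16.1%), of which 1871 were higher in Alport (8.43%) and 1711 were lower (7.71%). The 2 directions differed in size. The called rises had a median of 1.04 on the log2 scale and 263 of them (14.1%) reached 2 or more. The called falls had a median of -0.84, and 31 of them (1.81%) reached a loss of 2 or more. They also started from different levels, with a median wild type level of 6.75 for the probe sets that rose and 10.54 for those that fell. Probe sets near the lowest deposited value, 2.3, have little room to fall, and the part of this in the difference was not tested. When each sample was centred on its median, the median change of all probe sets moved from -0.03 to -0.17 and the split became 1451 higher and 2842 lower. The number of falls was 1118 without Alport sample 1.

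The 2 directions were spread differently over brightness. In the dimmest decile of probe sets, by mean level over the 12 samples, 0.540% were called higher and 0.180% lower. That decile spans 2.48 to 3.55 and the lowest deposited value is 2.3, which leaves little room for a fall. The median SE was 0.21 in the sixth decile and 0.18 in the brightest. What room and precision add to these shares was not tested. Rises were most frequent in the middle of the range, at 15.7% of the sixth decile against 5.85% lower there. In the eighth decile the falls, at 13.7%, passed the rises, at 12.2%. In the brightest decile 26.0% of 2221 probe sets were called lower and 9.19% higher, with a median change of -0.19. Binning by the wild type mean alone gave 28.7% lower and 7.25% higher in that decile. After a new quantile normalization 417 probe sets of the brightest decile were lower and 306 higher, against 577 and 204 as deposited, so the excess of falls there was smaller but kept its direction. The median change of that decile was -0.03 after quantile normalization and -0.33 after centring.

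**Figure D1:**
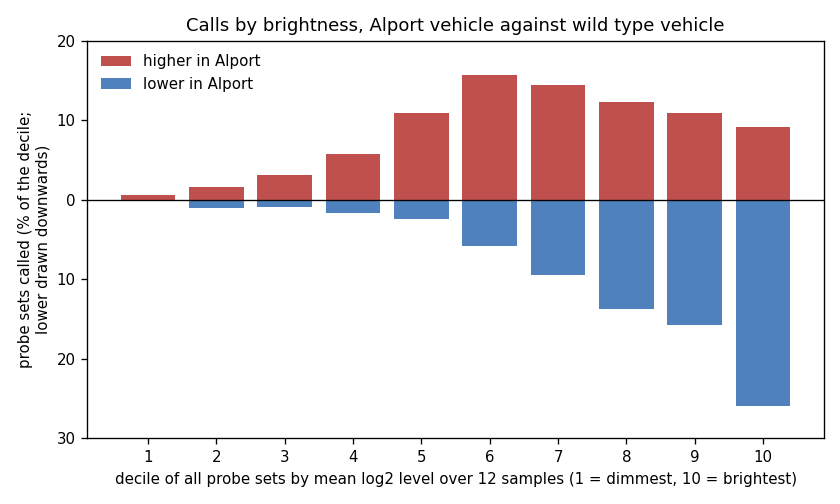
Share of probe sets called (adjusted p under 0.05) in each decile of brightness, with rises drawn upwards and falls downwards from 0, in percent of the probe sets of the decile. Falls grow from 0.180% in the dimmest decile to 26.0% in the brightest, while rises peak at 15.7% in the sixth decile.

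Among the 100 brightest probe sets with a gene name 3 rose and 32 fell, against 8.43% higher and 7.71% lower over all probe sets. Their median change was -0.22, with a range of -1.83 to 0.77. Of the 20 brightest with a gene name, 5 fell and 1 rose. Kap, the androgen-regulated protein of the mouse proximal tubule, was at 19.61, 19.66 and 19.63 in wild type and 19.50, 19.55 and 19.48 in Alport. Gpx3, the secreted glutathione peroxidase that the kidney supplies to plasma, changed by -0.13 ± 0.14 and Fth1, the heavy chain of the iron store ferritin, by -0.11 ± 0.14, and neither passed the test (adjusted p = 0.62 and 0.685). In all 3 genes every Alport value lay below every wild type value, by small amounts close to the highest deposited value of 19.88, and whether the scale is compressed there was not tested. Over all probe sets, 6606 of 22206 (29.7%) had no overlap between the groups. On the linear scale the 20 brightest of all probe sets, named or not, held 16.2 to 17.0% of all signal in the wild type samples. They held 16.8 to 17.8% in the Alport samples, and these ranges overlap. The whole brightest decile held 91.9 to 92.2% in wild type and 90.6 to 91.6% in Alport, which do not overlap.

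The 5 falls among the 20 brightest genes were in tubule transporters and enzymes. Cyp4b1, a cytochrome P450, was at 19.14, 19.08 and 19.11 in wild type and at 17.84, 18.19 and 18.52 in Alport, a fall of 0.93 ± 0.18 (adjusted p = 0.00154). Slc34a1, the main sodium-phosphate cotransporter of the proximal tubule, was at 19.19, 19.15 and 19.11 against 18.69, 18.67 and 18.40 and fell by 0.56 ± 0.15 (adjusted p = 0.0169). Ugt3a2, a sugar-conjugating enzyme, fell by 0.65 ± 0.17 (adjusted p = 0.0156), Napsa, an aspartic protease, by 0.55 ± 0.16 (adjusted p = 0.0246) and Slc27a2, which activates very long fatty acids, by 0.50 ± 0.16 (adjusted p = 0.0417). Igfbp7, a secreted binding protein for growth factors, was the 1 rise, at 0.55 ± 0.15 (adjusted p = 0.0205). The call for Slc34a1 was lost without Alport sample 3 or wild type sample 1 (adjusted p 0.0543 to 0.0749), and that for Ugt3a2 without Alport sample 1 or wild type sample 1 (0.0718 to 0.0848). The call for Igfbp7 was lost without Alport sample 1 or 3 or wild type sample 1 or 3 (0.0512 to 0.0823). Napsa lost its call when any of 5 samples was left out (0.0549 to 0.0852) and Slc27a2 likewise (0.0608 to 0.156), the exceptions being Alport sample 3 for Napsa and Alport sample 2 for Slc27a2. Quantile normalization also ended the calls for Slc34a1, Ugt3a2, Napsa and Slc27a2 (adjusted p 0.0513 to 0.136), and centring that for Igfbp7 (0.0667). A fit of only the 6 samples compared ended those for Slc34a1, Napsa, Slc27a2 and Igfbp7 (0.0528 to 0.0967).

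Larger changes in the brightest decile came from genes that were not at its top in wild type. The decile was set by the mean over all 12 samples, so a gene can enter it through its Alport levels. By the wild type mean the brightest decile starts at 11.73, and of the rises named next only Sparc began above that level. Lcn2, which encodes the iron-binding injury protein NGAL, stood at 6.05, 6.20 and 6.02 in wild type and at 15.46, 14.23 and 15.72 in Alport. Havcr1, the proximal tubule injury receptor KIM-1, went from 7.21, 6.71 and 6.36 to 15.68, 13.66 and 13.80. Mgp, an inhibitor of tissue calcification, rose by 4.96 ± 0.28 (adjusted p = 3.11e-08), and Dcn, a proteoglycan that binds collagen, by 3.78 ± 0.22 (adjusted p = 3.11e-08). Acta2 (smooth muscle actin), Muc1 (an epithelial mucin), Sparc (a matrix protein), Flna (an actin crosslinker), Serping1 (the inhibitor of complement C1) and Cp (the copper protein ceruloplasmin) rose by 2.98 to 3.53. Sparc reached 17.20, 16.90 and 17.19 in Alport, from 13.82, 13.87 and 13.35.

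Cyp4a12a, a fatty acid hydroxylase, had the largest fall among the named genes of the brightest decile. It was at 15.36, 14.81 and 14.89 in wild type and 10.88, 10.79 and 11.40 in Alport, and fell by 3.997 ± 0.33 (adjusted p = 1.22e-06). Slco1a1, an organic anion transporter, fell by 3.14 ± 0.39, Azgp1, a secreted lipid-mobilizing protein, by 3.10 ± 0.33 and Dnase1, the secreted nuclease, by 3.08 ± 0.28 (adjusted p between 3.19e-06 and 5.03e-05). Slc22a19, Cyp2d12, Cyp2d9, Slc22a22, Lipo3 and Cyp4a12b fell by 2.10 to 2.53. Groups did not overlap for any of these 10 genes, which were chosen as the largest called falls, against 29.7% of all probe sets without overlap. The pairs Cyp4a12a and Cyp4a12b and Cyp2d9 and Cyp2d12 are close in sequence and can share signal, so their separate values are uncertain. Several of these genes are known to be higher in male than in female mouse kidney. In a list of 8 such male-biased genes 5 fell and 0 rose, with a median of -1.24, and Kap was among those not called.

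Lists of marker genes, 56 in all with 776 distinct measured genes, were used to describe segments, cell types and pathways. Each list is given by its counts of called members and its median change, to be read against 8.43% higher, 7.71% lower and a median of -0.03 over all probe sets. Lists of bright genes are also to be read against the brightest decile, with 9.19% higher, 26.0% lower and a median of -0.19. That decile starts at a mean level of 11.67. Median levels were 15.43 for the early proximal tubule, 12.56 for complex I, 15.11 for ATP synthase and 15.03 for glutathione and peroxide defence. In whole kidney RNA, fewer cells of a type and less RNA per cell cannot be told apart.

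Of 19 measured podocyte genes 10 rose, 0 fell and 9 were not called, with a median of 0.71. Fibroblast genes (7 of 7) and mesangium and vascular wall genes (8 of 10) rose in the same samples, and their part in the podocyte counts was not tested. Synpo, which bundles actin in podocyte foot processes, was at 8.99, 8.82 and 8.56 in wild type and 10.63, 10.52 and 10.25 in Alport, a rise of 1.68 ± 0.16 (adjusted p = 6.67e-06). Nes, an intermediate filament protein, Kirrel, a slit diaphragm protein, and Ptpro, a membrane phosphatase, rose by 1.41 to 1.78. Nphs1, which encodes nephrin, the core of the slit diaphragm, did not follow. It was at 9.58, 9.64 and 9.64 in wild type and 9.54, 9.65 and 8.90 in Alport, a difference of -0.26 ± 0.20 (adjusted p = 0.469), and Actn4, the brightest member, differed by -0.003 ± 0.17. Of 6 genes of the parietal epithelium, which lines the capsule around the filter, 4 rose and 1 fell. Dkk3, Akap12, Ncam1 and Cldn1 rose by 1.62 to 2.24, and Lad1, an anchoring filament protein, fell by 0.83 ± 0.17 (adjusted p = 0.00314).

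**Figure D2:**
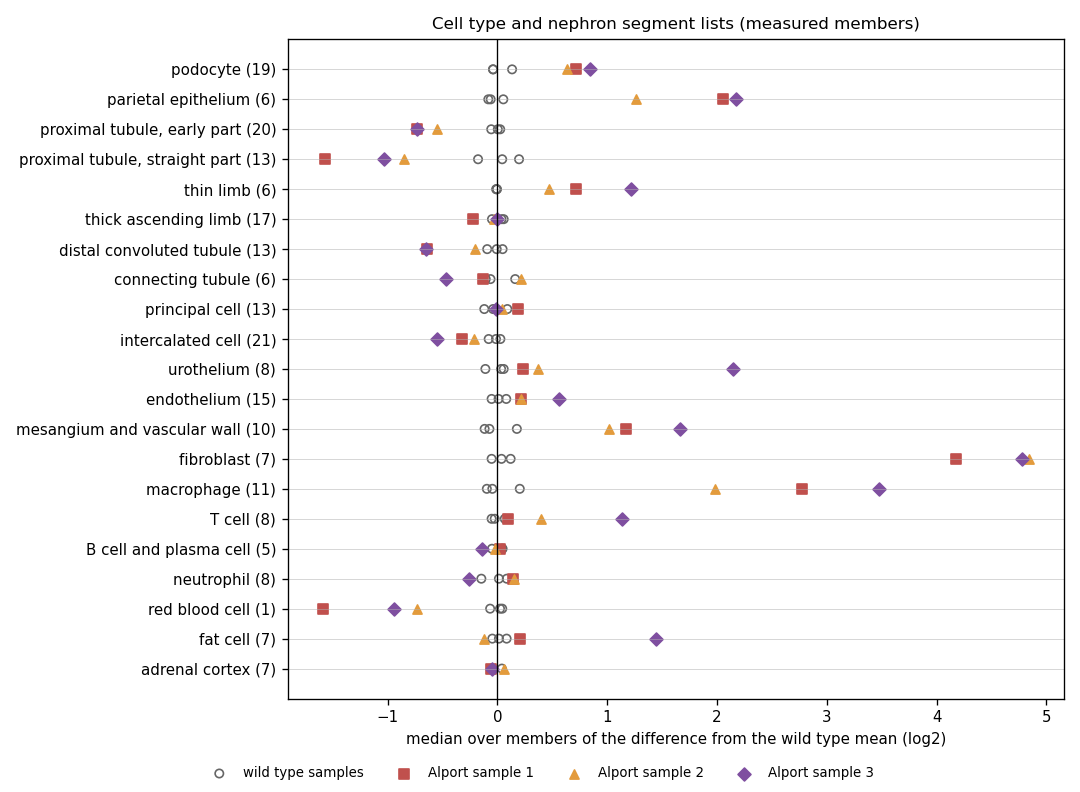
Each point is 1 sample's median, over the measured members of a list (number in brackets), of the difference from the wild type mean on the log2 scale. The Alport samples lie below 0 for the proximal tubule lists and above 0 for podocyte, vascular wall, fibroblast and macrophage lists, and Alport sample 3 stands apart for urothelium, T cell and fat cell markers.

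The proximal tubule lists went down. In the early part 11 of 20 genes fell and 0 rose (median -0.67), and in the straight part 10 of 13 fell and 0 rose (median -0.91). Slc13a3, a carrier of citric acid cycle intermediates, was at 15.50, 15.18 and 15.23 in wild type and 13.34, 14.15 and 13.95 in Alport, a fall of 1.49 ± 0.23 (adjusted p = 0.00028). Cubn and Lrp2, which encode cubilin and megalin, the receptors that retrieve filtered protein, fell by 1.12 ± 0.20 and 1.00 ± 0.19 (adjusted p = 0.00102 and 0.00178). Slc22a6, the organic anion carrier of the basolateral side, fell by 0.93 ± 0.18 (adjusted p = 0.00153), and Slc4a4, the sodium-bicarbonate carrier, by 0.85 ± 0.15 (adjusted p = 0.00115).

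In the straight part Slc7a13, an acidic amino acid transporter, fell from 17.79, 17.41 and 17.56 to 15.21, 16.09 and 15.97. That is 1.83 ± 0.24 (adjusted p = 7.28e-05). Slc5a8, a monocarboxylate transporter, fell by 1.35 ± 0.18 (adjusted p = 0.000103), and Slc1a1, a glutamate transporter, by 1.32 ± 0.18 (adjusted p = 8.62e-05). Not every proximal transporter was lower. The sulfate transporter Slc13a1 was at 17.19, 16.65 and 16.43 in wild type and 17.54, 16.88 and 17.42 in Alport (0.52 ± 0.27, adjusted p = 0.226), and the high-affinity glucose carrier Slc5a1 differed by 0.38 ± 0.20 (adjusted p = 0.239).

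The loop of Henle and distal segments were less uniform. Of 17 genes of the thick ascending limb 1 rose and 2 fell, with a median of -0.04 that became 0.003 after quantile normalization. Umod, which encodes uromodulin, the most abundant urinary protein, was at 18.58, 18.51 and 18.66 in wild type and 18.72, 18.83 and 18.90 in Alport (0.23 ± 0.15, adjusted p = 0.346). The salt carrier Slc12a1 and the potassium channel Kcnj1 differed by 0.07 ± 0.20 and 0.05 ± 0.21 (adjusted p = 0.874 and 0.925). In the same segment Egf, which encodes epidermal growth factor, fell from 14.83, 14.88 and 15.26 to 12.46, 13.79 and 12.64, by 2.03 ± 0.33 (adjusted p = 0.000498). Cldn19, a tight junction protein for magnesium and calcium transport, rose by 1.17 ± 0.19 (adjusted p = 0.000428). The fall of Casr, the calcium-sensing receptor, was 0.57 ± 0.17 (adjusted p = 0.0343) and was lost without Alport sample 1 or 2 or wild type sample 1 or 3 (adjusted p 0.102 to 0.125). The segment had 2 rises without Alport sample 2, and 1 fall without Alport sample 1 or wild type sample 1 or 3.

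Of 13 genes of the distal convoluted tubule 6 fell and 0 rose (median -0.39). Pvalb, a calcium-binding protein of this segment, was at 8.14, 8.12 and 8.02 in wild type and 6.81, 7.06 and 6.73 in Alport, and fell by 1.23 ± 0.25 (adjusted p = 0.00265). Wnk4, a kinase that controls salt transport here, fell by 0.77 ± 0.18 (adjusted p = 0.0064). The thiazide-sensitive salt carrier Slc12a3 was at 15.40, 15.58 and 15.61 against 14.89, 15.30 and 14.49, a fall of 0.64 ± 0.19 (adjusted p = 0.0333). The count of falls was 2 without Alport sample 1 and 3 without Alport sample 3 or wild type sample 1, and the call for Slc12a3 was lost when any sample but Alport sample 2 was left out (adjusted p 0.0509 to 0.162). Of 6 genes of the connecting tubule 0 were called, and 2 were called lower without Alport sample 2. Its brightest, Klk1, which encodes tissue kallikrein, was at 19.15, 19.03 and 19.14 in wild type and 18.68, 19.00 and 18.47 in Alport (adjusted p = 0.133).

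The water channels of the collecting duct moved apart. Aqp2, the channel of the luminal side that vasopressin controls, was at 13.55, 14.06 and 12.79 in wild type and 14.94, 14.75 and 15.18 in Alport, a rise of 1.49 ± 0.28 (adjusted p = 0.00142). Aqp4, a channel of the opposite side of the same principal cells, was at 8.60, 9.48 and 9.38 against 7.41, 7.02 and 7.68, a fall of 1.78 ± 0.43 (adjusted p = 0.00851). Aqp3, which lies on the same side as Aqp4, differed by -0.68 ± 0.23 (adjusted p = 0.0518). No other of the 13 principal cell genes passed the test, and their median was 0.07, or -0.07 after centring. Without Alport sample 3 there were 2 falls. A test of whether Aqp2 and Aqp4 differ from each other was not run. The groups do not overlap in either gene, as in 29.7% of all probe sets, and the directions are opposite.

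Intercalated cells, which handle acid and base, had 6 falls and 1 rise among 21 genes (median -0.24). Insrr, a receptor that senses alkaline fluid, was at 8.90, 8.70 and 9.34 in wild type and 7.09, 7.66 and 6.82 in Alport, a fall of 1.79 ± 0.23 (adjusted p = 5.97e-05). Slc4a9, an anion carrier of the base-secreting cells, fell by 1.11 ± 0.18 (adjusted p = 0.000441), Rhcg, an ammonia channel, by 0.95 ± 0.22 (adjusted p = 0.00709) and Atp6v0a4, a proton pump subunit, by 0.83 ± 0.19 (adjusted p = 0.00556). Slc26a4, which encodes pendrin, fell by 0.90 ± 0.26 (adjusted p = 0.0258), a call lost without Alport sample 1 or 3 or wild type sample 2 or 3 (adjusted p 0.0678 to 0.127). Car2, the brightest member and a carbonic anhydrase, differed by 0.18 ± 0.19 (adjusted p = 0.611). The 1 rise, of the bicarbonate carrier Slc4a8, was lost without Alport sample 1 or 2 or wild type sample 1 or 3 (adjusted p 0.0527 to 0.181). In the thin limb 2 of 6 genes rose and 1 fell, with 1 rise left without Alport sample 3 or wild type sample 1 or 3, and with the fall lost when any sample but Alport sample 3 was left out. Cryab, a small heat shock protein of this list, rose by 1.55 ± 0.18 (adjusted p = 3.06e-05).

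**Figure D3:**
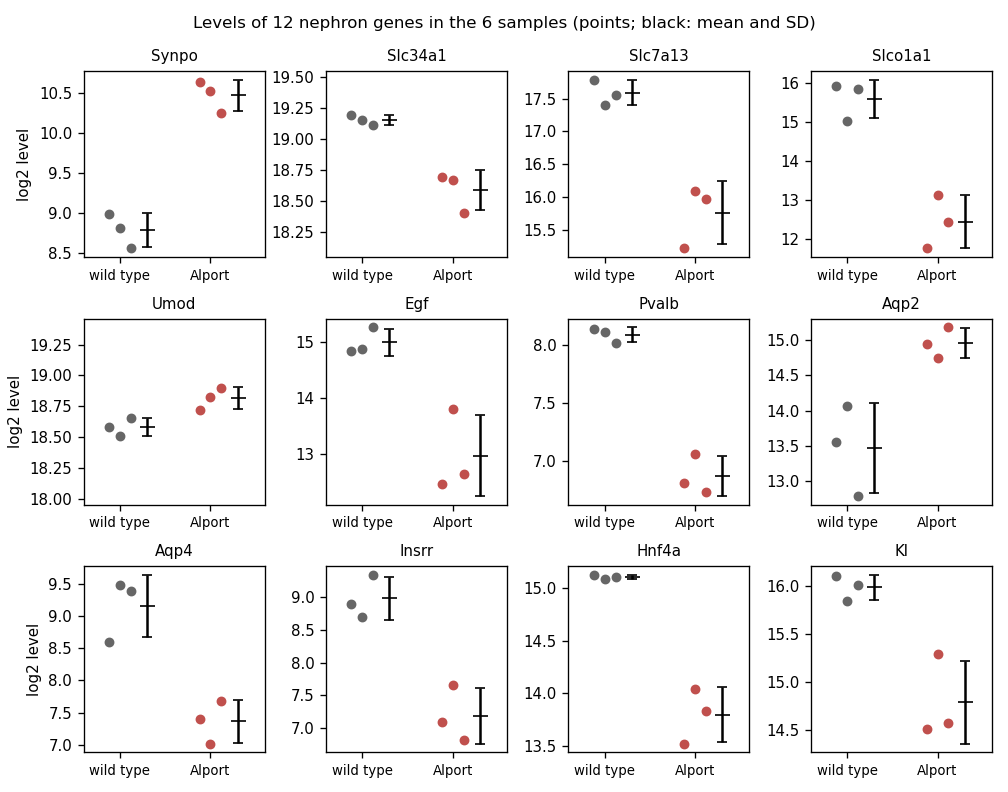
Log2 levels of 12 nephron genes in the 3 wild type and 3 Alport samples (points, in sample order within a group), with the mean and SD of each group in black, and each panel on its own axis. The groups do not overlap in any of the 12 panels, against 29.7% of all probe sets without overlap. The 12 genes were picked by hand and all but Umod were called, so this contrast follows largely from the choice. The difference for Umod, 0.23, did not pass the test.

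Markers of cells outside the nephron moved with these changes, and their part in the nephron results was not tested. All 7 fibroblast genes rose (median 4.61), with Col3a1, a fibrillar collagen, going from a mean of 6.71 to 12.83. Of 11 macrophage genes 10 rose and 0 fell (median 2.82). Lyz2, which encodes lysozyme, rose by 6.31 ± 0.49 (adjusted p = 7.1e-07) and C1qc, a chain of complement C1q, by 2.82 ± 0.32 (adjusted p = 1.99e-05), while Csf1r, the growth factor receptor of these cells, differed by 0.51 ± 0.17 (adjusted p = 0.0557). The median level of the macrophage list was 5.61 to 6.03 in wild type and 7.76 to 9.13 in Alport. Of 10 mesangium and vascular wall genes 8 rose and 0 fell, among them Tagln, Pdgfrb and Rgs5, by 3.51, 2.04 and 1.66. Endothelial markers changed less, with 2 rises and 1 fall among 15 (median 0.34). Kdr, the main receptor for vascular endothelial growth factor, was the fall, at 0.69 ± 0.19 (adjusted p = 0.0221), and the call was lost without Alport sample 3 or wild type sample 1 or 2 (adjusted p 0.0595 to 0.0849). The endothelial rises numbered 0 without wild type sample 3 and 1 without Alport sample 2 or 3 or wild type sample 1 or 2. Scaling mattered too, with 0 rises and 2 falls after centring and 4 rises when the dimmest 33.3% of probe sets were left out. Quantile normalization ended the fall of Kdr (adjusted p = 0.0753).

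Of 8 T cell genes 2 rose, Cd3e by 1.22 ± 0.26 (adjusted p = 0.00397) and Cd4 by 0.93 ± 0.22 (adjusted p = 0.00669), and the median level of the list was 4.71 to 4.82 in wild type and 4.96 to 5.63 in Alport. Jchain, the joining chain of antibodies made by plasma cells, went from 5.34, 5.36 and 5.20 to 8.03, 7.57 and 8.57, the only call among 5 genes of B and plasma cells. Alas2, a heme synthesis enzyme of red cell precursors, was the only measured member of its list and fell by 1.09 ± 0.23 (adjusted p = 0.00368). Of 8 neutrophil and 7 adrenal genes, 1 each passed the test, and both calls were lost whichever of the 6 samples was left out. The median level of the neutrophil list was 3.98 to 4.06 in wild type and 4.25 to 4.40 in Alport, and that of the adrenal list was 4.19 to 4.31 over the 6 samples, although the median change of the neutrophil list was -0.02.

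Metabolic pathways fell in part, amino acid breakdown among them. Of 18 genes for branched-chain amino acids 15 fell and 0 rose (median -0.91), of 11 for aromatic amino acids 9 fell and 0 rose (median -1.13), and of 14 for glycine, proline and other amino acids 12 fell and 0 rose (median -0.95). Ivd, the dehydrogenase of the leucine pathway, was at 14.22, 13.93 and 13.99 in wild type and 12.43, 12.58 and 12.47 in Alport, a fall of 1.55 ± 0.17 (adjusted p = 1.67e-05). Hibadh, the brightest of the branched-chain list and an enzyme of valine breakdown, fell by 0.82 ± 0.16 (adjusted p = 0.00153). Hpd, which acts on a tyrosine breakdown product, went from 11.62, 12.23 and 12.60 to 9.11, 8.72 and 9.81. Afmid, of the tryptophan pathway, fell by 2.07 ± 0.21 (adjusted p = 7.95e-06), and Dmgdh and Sardh, which strip methyl groups on the way to glycine, by 1.88 ± 0.26 and 1.29 ± 0.17 (adjusted p = 0.000103 and 9.22e-05).

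Fat-burning and sugar-making genes fell as well. Of 18 genes of mitochondrial fatty acid oxidation 10 fell and 0 rose (median -0.66). Cpt1a, which admits long fatty acids to mitochondria, was at 15.22, 15.44 and 15.48 in wild type and 14.41, 14.55 and 14.45 in Alport, a fall of 0.91 ± 0.15 (adjusted p = 0.000583). Hadha, a subunit of the trifunctional protein of the same pathway, was at 12.90, 13.06 and 12.95 against 12.62, 12.98 and 13.08 (adjusted p = 0.838). Of 21 peroxisomal genes 14 fell and 0 rose (median -0.76), including Cat, which encodes catalase, by 0.79 ± 0.15 (adjusted p = 0.00142), and Phyh, of phytanic acid oxidation, by 1.12 ± 0.14 (adjusted p = 6.6e-05). The count of falls in fatty acid oxidation was 6 without Alport sample 1 or wild type sample 1 or 3. That of peroxisomal falls was 8 without Alport sample 1 and 9 without wild type sample 1 or 2. Of 9 genes of gluconeogenesis and fructose 7 fell and 1 rose (median -1.08), the rise being lost without Alport sample 1 or 3 or wild type sample 1 or 2. Slc2a5, the fructose carrier, fell from 14.18, 14.27 and 14.28 to 12.13, 12.55 and 12.83, and Khk, which phosphorylates fructose, fell by 1.62 ± 0.22 (adjusted p = 9.73e-05).

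**Figure D4:**
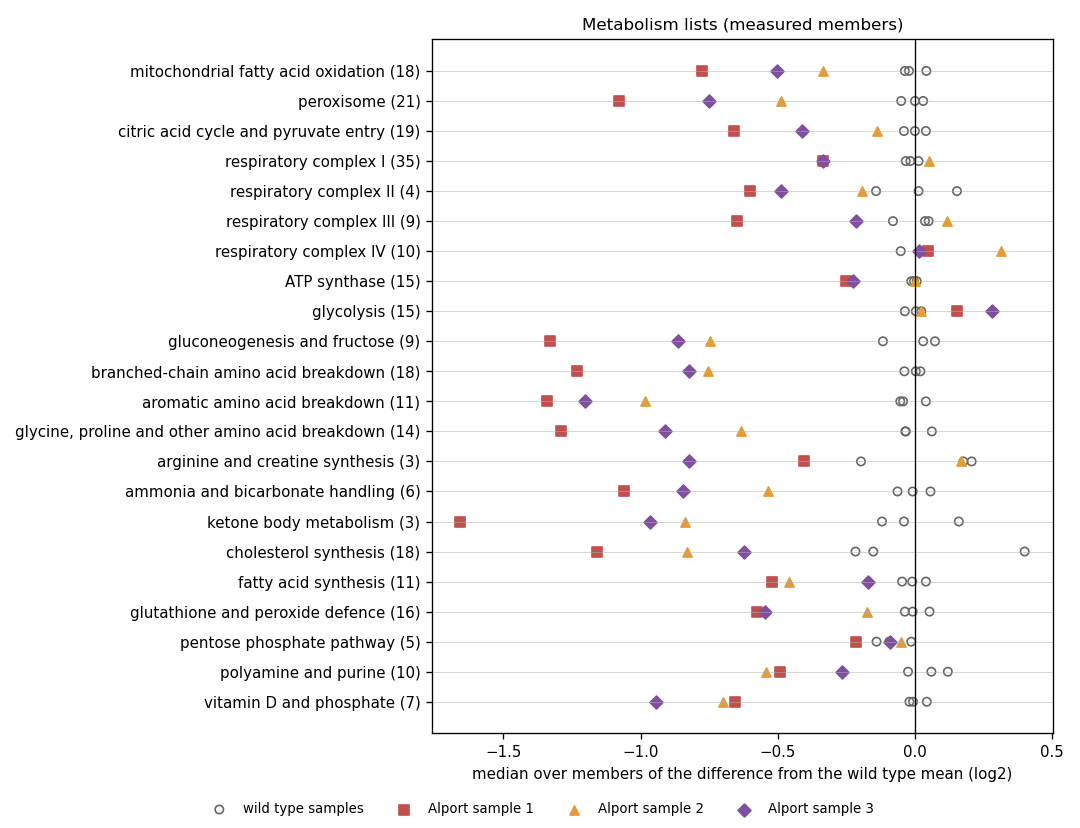
Each point is 1 sample's median, over the measured members of a metabolism list (number in brackets), of the difference from the wild type mean on the log2 scale. Amino acid breakdown, gluconeogenesis and ketone lists lie lowest in Alport sample 1, and respiratory complex IV and glycolysis lie at or above 0 in all 3 Alport samples.

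The citric acid cycle and the respiratory chain fell only in places. Of 19 genes of the cycle and of pyruvate entry 8 fell and 0 rose (median -0.48). Pcx, the pyruvate carboxylase that feeds the cycle and gluconeogenesis, was at 14.74, 14.86 and 14.68 in wild type and 12.83, 13.65 and 13.25 in Alport, a fall of 1.52 ± 0.20 (adjusted p = 7.91e-05), and Ogdh, of the oxoglutarate step, fell by 0.81 ± 0.17 (adjusted p = 0.00292). Cs, citrate synthase, differed by -0.09 ± 0.17 (adjusted p = 0.789). Falls among subunits of the chain numbered 6 of 35 for complex I, 2 of 4 for complex II, 2 of 9 for complex III, 0 of 10 for complex IV and 1 of 15 for ATP synthase, with 0 rises. Medians of these 5 lists were -0.16, -0.43, -0.31, 0.18 and -0.17, and that of ATP synthase became 0.02 after quantile normalization. Ndufa10 of complex I, Sdha of complex II and Uqcrc2 of complex III fell by 0.79 ± 0.18, 0.97 ± 0.21 and 1.19 ± 0.24 (adjusted p between 0.00219 and 0.00571). The brightest members did not follow, with Ndufb9 at 0.01 ± 0.20, Sdhb at 0.007 ± 0.17, Uqcrb at 0.12 ± 0.15, Cox7c at 0.09 ± 0.16 and Atp5a1 at -0.22 ± 0.14. The complex I count was 1 to 3 when any sample but Alport sample 2 was left out, and the count for complex II was 1 without wild type sample 1. For complex III it was 1 without Alport sample 1 or 3 or wild type sample 3. For ATP synthase it was 0 without Alport sample 3 or wild type sample 1 or 3, and 2 without Alport sample 2.

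Glycolysis had 3 rises and 1 fall among 15 genes (median 0.11, or -0.03 after centring). Pfkp, the platelet form of phosphofructokinase, was at 10.55, 9.93 and 10.14 in wild type and 11.42, 11.07 and 11.17 in Alport, a rise of 1.01 ± 0.20 (adjusted p = 0.00215). Pfkm, the muscle form of the same enzyme, fell by 0.80 ± 0.21 (adjusted p = 0.0133), a call lost without Alport sample 1 or wild type sample 1 (adjusted p 0.0604 to 0.0772). Pkm, a pyruvate kinase, rose by 0.62 ± 0.15 (adjusted p = 0.0109), and Gapdh differed by -0.26 ± 0.15 (adjusted p = 0.281). None of the 5 genes of the pentose phosphate pathway was called.

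Cholesterol synthesis had 11 falls and 0 rises among 18 genes (median -0.81). Cyp51, a demethylase of the pathway, was at 13.15, 12.39 and 12.55 in wild type and 10.60, 11.67 and 11.01 in Alport, a fall of 1.6 ± 0.29 (adjusted p = 0.000978), and Insig1, a sterol sensor, fell by 1.42 ± 0.24 (adjusted p = 0.000706). The wild type samples themselves differed in this list, with list medians of 0.40, -0.22 and -0.15 relative to their own mean. Fatty acid synthesis was mixed, with 5 falls and 1 rise among 11 genes. Dgat2 and Gpam, which build triglycerides, fell by 1.31 ± 0.18 and 1.14 ± 0.16 (adjusted p = 0.000121 and 0.000142), and Mlxipl, a sugar-responsive transcription factor, by 1.75 ± 0.32 (adjusted p = 0.00132). Scd1, a fatty acid desaturase, was at 14.82, 14.74 and 14.93 in wild type and 16.55, 14.97 and 15.82 in Alport, and its rise of 0.95 ± 0.30 (adjusted p = 0.0418) was lost when any sample but Alport sample 2 was left out (adjusted p 0.0805 to 0.213). The count of falls in this list was 3 without Alport sample 1.

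Of 7 vitamin D and phosphate genes 5 fell and 0 rose (median -1.0), with 1 rise without Alport sample 3. Kl, which encodes Klotho, the partner receptor for the phosphate hormone FGF23, was at 16.11, 15.85 and 16.01 in wild type and 14.51, 15.29 and 14.57 in Alport, a fall of 1.20 ± 0.21 (adjusted p = 0.000853). Vdr, the vitamin D receptor, fell by 1.00 ± 0.17 (adjusted p = 0.000768), and Slc34a3, a further phosphate carrier, by 1.49 ± 0.32 (adjusted p = 0.00353). The enzymes that make and break active vitamin D varied more. Cyp24a1, which degrades it, was at 12.40, 13.29 and 13.18 against 12.30, 10.47 and 11.17 (adjusted p = 0.0828), and Cyp27b1, which makes it, was under the lower quartile of all probe sets in wild type and at 4.33, 6.01 and 3.94 in Alport (adjusted p = 0.062). Alport sample 2 was the extreme in both.

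Defence against oxidation was also mixed, with 5 falls and 1 rise among 16 genes (median -0.47). The falls made up 31.25% of the list, against 26.0% lower in the brightest decile. Hmox1, an inducible enzyme that breaks down heme, rose by 1.27 ± 0.17 (adjusted p = 0.000111), Gss, of glutathione synthesis, fell by 1.17 ± 0.21 (adjusted p = 0.00115), and Gpx1, the cellular glutathione peroxidase, differed by 0.05 ± 0.15 (adjusted p = 0.879). Leaving out Alport sample 1 or wild type sample 3 brought the falls to 3. Of 10 polyamine and purine genes 4 fell and 1 rose, with Odc1, the first enzyme of polyamine synthesis, falling by 1.46 ± 0.29 (adjusted p = 0.0022) and the urate transporter Slc22a12 by 0.90 ± 0.18 (adjusted p = 0.00289). The rise, of Xdh, was lost whichever of the 6 samples was left out. Of 6 genes for ammonia and bicarbonate handling in the proximal tubule 5 fell, and 3 did without Alport sample 1 or wild type sample 2 or 3. Slc38a3, the glutamine carrier, fell by 1.36 ± 0.29 (adjusted p = 0.00334). Of 3 ketone genes 2 fell, Bdh1 by 1.35 ± 0.26 and Acat1 by 1.16 ± 0.22 (adjusted p = 0.00154 and 0.00129). In arginine metabolism Arg2, an arginase, rose by 1.78 ± 0.23 (adjusted p = 6.24e-05) and Asl fell by 0.88 ± 0.21 (adjusted p = 0.00724).

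Of 16 transcription factors of the tubule 7 fell and 0 rose (median -0.48). Hnf4a, a nuclear receptor that maintains the proximal tubule programme, was at 15.13, 15.09 and 15.11 in wild type and 13.52, 14.04 and 13.83 in Alport. Its fall of 1.31 ± 0.16 (adjusted p = 4.16e-05) was many times the spread between the wild type samples. Ppara, the receptor that drives fatty acid oxidation, fell by 1.62 ± 0.28 (adjusted p = 0.000761), Esrrg, a receptor tied to mitochondrial genes, by 0.80 ± 0.16 (adjusted p = 0.00191) and Nr1h4, the bile acid receptor, by 0.84 ± 0.20 (adjusted p = 0.00785). Ppargc1a, a coactivator of mitochondrial genes, fell by 0.48 ± 0.16 (adjusted p = 0.0482), lost without Alport sample 1 or 3 or wild type sample 2 or 3 (adjusted p 0.115 to 0.157). The count of falls was 4 without Alport sample 1 or 3 or wild type sample 2.

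Because Hnf4a fell, the promoters of measured genes were searched for the core of its binding motif, CAAAGTCCA, on both strands, in the 250 bases before each RefSeq start (GRCm38.p6). Of 15691 measured genes with a promoter in that table, 82 (0.523%) held the motif, against 14 of 1303 genes that fell (1.07%), 10 of 1299 that rose (0.770%) and 58 of 13089 not called (0.443%). In all promoters of the table the share was 0.384%. These are descriptions, and a match is not evidence of binding. Stretches are shown for 4 genes that fell and belong to the brightest decile or to the proximal tubule and metabolism lists. They were chosen for small p, but whether theirs are the smallest among all such genes was not established. The motif (capitals, on the strand of the gene) can be seen in place.
Treh: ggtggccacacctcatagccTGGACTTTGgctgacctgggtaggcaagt
Osbpl6: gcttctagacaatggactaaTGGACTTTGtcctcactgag
Agxt2: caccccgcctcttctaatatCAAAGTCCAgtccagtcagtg
Slc3a1: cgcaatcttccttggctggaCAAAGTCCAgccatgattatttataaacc

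The stretches lie on the plus strand at chr9:44673142-44673190 (Treh), chr2:76498966-76499005 (Osbpl6), chr15:10358492-10358532 (Agxt2) and chr17:85028288-85028336 (Slc3a1), all upstream of the annotated start. In Treh and Osbpl6 the motif reads in the opposite orientation, and its first base lies 71 and 20 bases before the start. In Agxt2 and Slc3a1 it lies 21 and 39 bases before the start. Treh encodes trehalase of the brush border, and its levels were 13.25, 13.03 and 13.15 in wild type and 11.00, 11.45 and 11.28 in Alport, a fall of 1.90 ± 0.19 (adjusted p = 6.88e-06). Osbpl6, of the oxysterol-binding protein family, fell by 1.40 ± 0.19 (adjusted p = 9.24e-05). Agxt2, a mitochondrial aminotransferase, fell by 1.17 ± 0.24 (adjusted p = 0.00274) and Slc3a1, a subunit of the cystine transporter, by 0.76 ± 0.17 (adjusted p = 0.00518). The groups did not overlap in any of the 4 genes, which were chosen for small p, against 29.7% of all probe sets without overlap.

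Among the gene groups that went up, tubular injury and interstitial matrix were nearly complete. Of 31 injury genes 29 rose and 0 fell (median 2.44), and of 25 matrix genes 24 rose and 0 fell (median 2.32). Clu, which encodes the chaperone clusterin, was the brightest injury gene and rose by 2.53 ± 0.32 (adjusted p = 5.16e-05). Vim, an intermediate filament protein of dedifferentiated tubule cells and of fibroblasts, rose by 4.06 ± 0.30 (adjusted p = 4.59e-07). Of 24 cell cycle genes 21 rose and 0 fell (median 1.46). Mki67, a marker of dividing cells, was at 6.39, 6.21 and 6.31 in wild type and 9.61, 9.85 and 9.29 in Alport, and Pcna, the replication clamp, rose by 1.08 ± 0.19 (adjusted p = 0.000739).

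Cytoskeleton and cytosolic ribosome genes also rose in part. Of 30 actin and tubulin genes 21 rose and 0 fell (median 1.00). Actb, often used as a reference gene, was at 17.64, 17.68 and 17.53 in wild type and 18.41, 18.34 and 18.42 in Alport, a rise of 0.77 ± 0.16 (adjusted p = 0.00281), and Tmsb4x, an actin-binding peptide, rose by 2.47 ± 0.26 (adjusted p = 1.15e-05). Of 54 cytosolic ribosomal protein genes 28 rose and 0 fell (median 0.59, with extremes of -0.11 and 1.01), 18 of them without Alport sample 3. Rpl41 and Rps24 rose by 1.01 ± 0.17 each (adjusted p = 0.000635 and 0.00064). Mitochondrial ribosomal proteins did not share this, with 0 rises and 3 falls among 35 (median -0.25). That count of falls was 1 without Alport sample 1 or 3 or wild type sample 1, and 6 without Alport sample 2. Of 10 class I antigen presentation genes 7 rose (median 1.26), with B2m, the shared light chain, up by 1.74 ± 0.29 (adjusted p = 0.000486). Of 22 interferon response genes 11 rose (median 0.67), with Cxcl10, a lymphocyte attractant, up by 2.75 ± 0.35 (adjusted p = 6.29e-05).

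Lysosomal genes moved in both directions, and secretory genes were little changed as a group. Of 25 lysosome genes 6 rose and 2 fell (median 0.24). Ctss and Laptm5, both known from immune cells, rose by 3.63 ± 0.52 and 2.55 ± 0.35 (adjusted p = 0.000154 and 0.000118), while Lamp2, the brightest member and a membrane protein of all lysosomes, differed by -0.23 ± 0.15 (adjusted p = 0.377). The rises numbered 11 after quantile normalization. The falls numbered 1 without Alport sample 1. Of 16 endoplasmic reticulum chaperones and stress genes 1 rose and 0 fell (median -0.02, or 0.09 after quantile normalization), the rise being lost without Alport sample 1 or 2 or wild type sample 1 or 3. Its brightest member, the chaperone Calr, differed by -0.18 ± 0.16 (adjusted p = 0.518). Fxyd2 and Atp1b1, subunits of the sodium pump on which tubule transport depends, differed by 0.05 ± 0.15 and 0.19 ± 0.15 (adjusted p = 0.882 and 0.452).

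The 3 Alport samples were less alike than the 3 wild type samples. The median SD per probe set was 0.20 in wild type and 0.23 in Alport, and the Alport SD was the larger in 12763 of 22206 probe sets (57.5%). It was larger in 66.3% of the probe sets that rose, 65.1% of those that fell and 55.9% of the rest. The calls themselves depend on these SDs, which is why the shares are given without a test. A range of more than 1 on the log2 scale between the samples of a group occurred in 1501 probe sets in Alport and 607 in wild type.

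Alport sample 2 was the mildest of the 3. Among the 1871 probe sets that rose it had the lowest Alport level in 1165 (62.3%), and among the 1711 that fell it had the highest in 990 (57.9%). Alport sample 1 had the lowest level in 956 of the falls (55.9%), and Alport sample 3 the highest in 953 of the rises (50.9%). Median differences from the wild type mean were 1.13, 0.86 and 1.21 for the rises and -0.98, -0.70 and -0.86 for the falls, in samples 1, 2 and 3. The order was not the same in all groups of genes. For the straight proximal tubule the list medians were -1.57, -0.85 and -1.03, and for branched-chain amino acid breakdown they were -1.23, -0.75 and -0.83. For fibroblast genes the list median was highest in sample 2, at 4.17, 4.84 and 4.77, but the median level was highest in sample 3, at 10.71, 11.01 and 11.21. For the 25 interstitial matrix genes sample 2 was the lowest, at 2.56, 2.39 and 2.52. For cell cycle genes the 3 were close, at 1.57, 1.40 and 1.40.

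**Figure D5:**
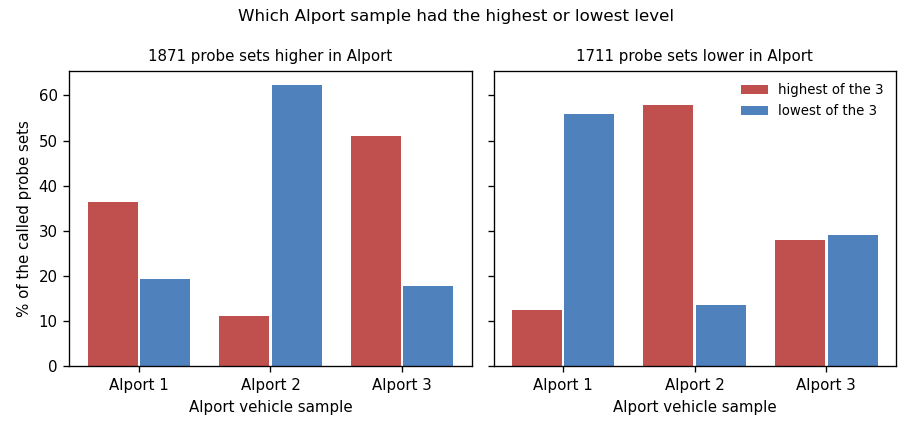
For the probe sets that rose (left) and fell (right), the percentage in which each Alport sample had the highest or the lowest level of the 3. Alport sample 2 was lowest in 62.3% of the rises and highest in 57.9% of the falls.

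Alport sample 3 differed in markers of tissues around the kidney parenchyma. Of 8 markers of urothelium, the lining of the renal pelvis, 3 rose, and the list medians of the 3 Alport samples were 0.23, 0.37 and 2.14. Krt20, a keratin and the largest of these rises, was highest in sample 1, at 3.17, 3.78 and 3.84 in wild type and 6.98, 5.86 and 6.07 in Alport (2.71 ± 0.58, adjusted p = 0.00391). Psca, a membrane protein of that lining, was at 6.99, 6.42 and 6.25 in wild type and 7.98, 8.94 and 10.47 in Alport, a rise of 2.58 ± 0.55 (adjusted p = 0.00392). Fat cell markers had medians of 0.20, -0.13 and 1.44, and 0 of 7 were called, with 2 called higher without Alport sample 2 and 1 without wild type sample 3. Ucp1, of heat-producing fat, was at 2.80, 2.72 and 3.02 in wild type and 4.13, 2.56 and 6.93 in Alport, and Adipoq, a fat cell hormone, at 3.45, 3.68 and 3.53 against 3.64, 3.32 and 5.82 (adjusted p = 0.134 and 0.372). T cell markers had medians of 0.10, 0.39 and 1.14. The part that these tissues have in other rises of Alport sample 3 was not tested. Without this sample 1453 probe sets rose and 1346 fell.

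The most variable called genes of the brighter part of the array came from several cell types. Mmp12, a macrophage elastase, was at 9.54, 6.71 and 9.65 in the Alport samples against 6.15, 4.92 and 5.58 in wild type. Mrc1, the mannose receptor of macrophages, was at 11.20, 9.40 and 11.54 against 7.31, 6.95 and 6.66, so that sample 2 was the lowest Alport sample in both. Stra6, a receptor for the retinol carrier, was at 11.91, 8.91 and 10.50 against 6.76, 7.45 and 6.64. Stc2, which encodes the hormone stanniocalcin 2, was at 8.07, 5.84 and 7.07 against 4.94, 4.33 and 4.87, and Igfbp2, a binding protein for growth factors, was highest in sample 3, at 12.44. Havcr1 was highest in sample 1, at 15.68. A limma fit with an intensity trend and a robust prior for the variance ended the calls for Mmp12 and Igfbp2 (adjusted p = 0.0658 and 0.0532).

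Variable falls were lowest in sample 1. Slc22a7, an organic anion transporter of the proximal tubule, was at 9.57, 12.00 and 11.82 in Alport and 13.47, 12.42 and 13.33 in wild type, and its call (adjusted p = 0.0158) was lost without Alport sample 1 or wild type sample 1 or 3 (adjusted p 0.0619 to 0.0704). Slc25a25, a mitochondrial carrier of ATP and magnesium, was at 5.39, 7.61 and 6.77 against 7.35, 8.39 and 9.14, where the groups overlap, and its call (adjusted p = 0.0183) was lost without Alport sample 1 or wild type sample 2 or 3 (0.0566 to 0.103). The predicted gene Gm6300 was at 6.87, 9.67 and 7.70 against 12.10, 9.79 and 10.49, and its call (adjusted p = 0.0491) was lost without Alport sample 1 or 3 or wild type sample 1 or 3 (0.0902 to 0.208). The limma fit with a trend and a robust prior also ended the calls for Slc22a7, Slc25a25 and Gm6300 (adjusted p = 0.0999, 0.0582 and 0.2).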

How the data were processed

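Total RNA of whole kidney (100 ng per sample) had been labelled and hybridised to the arrays, per the labels' protocols. The authors deposited 1 log2 value per probe set and sample, from 2.3 to 19.88. Per the submitters' processing notes the software was Transcriptome Analysis Console 4.0. How background, normalization and summarisation were handled was not given in the sources used here. Array number, 3 per group, limits precision (median SE 0.20).

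A single gene symbol was paired with 19572 of 22206 probe sets by the platform annotation, checked against RefSeq (GRCm38.p6). For genes with several probe sets the brightest was used. Tests used limma 3.58.1 in R 4.3.3 (lmFit and eBayes, 4 group means, 8 residual degrees of freedom, two-sided) and the procedure was tested on simulated data. Lists are described by counts and medians.

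Genes were named by rule: Col4a5, the 20 brightest, the 10 largest called rises and falls of the brightest decile, the brightest and up to 4 strongest members of each list with members against its direction, and the 10 called genes most variable in Alport. Further genes were named after their values were seen (Nphs1, Lrp2, Slc12a1, Slc12a3, Kcnj1, Aqp3, Slc13a1, Slc5a1, Slc26a4, Ppargc1a, Cyp24a1, Cyp27b1, Hpd, Hadha, Cs, Gpx1, Ucp1, Adipoq, Atp1b1 and the 4 with promoters). The members, the lists and the motif were chosen with earlier results of these data known. Others looked at in the same way are not printed, and the naming rule itself left out 1 gene.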

Additional observations from a re-analysis of the deposited data

How the results depend on the processing

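The number of calls, 3582, was 2549 to 3756 when each of the 6 samples was left out in turn, with 1419 to 1987 rises and 1118 to 1769 falls. Centring each sample on its median gave 2842 falls. At an adjusted p under 0.01 there were 2019 calls (1144 higher, 875 lower), and 1533 calls (1000 higher, 533 lower) were at least 1 on the log2 scale. At an unadjusted p under 0.05, 6139 probe sets would be counted. Of 261 genes followed under 12 alternatives 212 were called, 164 of these kept the call in all of them, and 0 reversed. These genes were chosen mainly for brightness, small p or large change in these same data, so the counts say little about all 3582 calls. The share of the brightest decile called lower was 17.3 to 26.7% without each sample in turn, an alternative added after the data were seen. Deviations from the group mean correlated at -0.08 to -0.05 between same-numbered samples and at 0.002 to 0.05 between the others. With 3 samples per group these values constrain each other, so they cannot decide whether the numbers pair samples. A fit with a replicate block called 3333. Levels near the lower quartile, about 4.2, limit what can be measured for fat, adrenal and neutrophil markers.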
